A study of Mus musculus with 26 samples.

Results

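The genes described here fold, hydroxylate, crosslink and trim collagen: the chaperone gene Serpinh1, the prolyl hydroxylase genes P4ha1 and P4ha2, the lysyl hydroxylase genes Plod1 and Plod2, the crosslinking oxidase genes Lox, Loxl1 and Loxl2, and the propeptide-processing genes Bmp1 and Pcolce. They were chosen by name, as the probe sets of an Affymetrix mouse array whose annotation gives exactly 1 of these symbols. The array measured 9 of the 10 genes, out of 18193 genes in all, with 19 probe sets, of which 18 passed a filter on low values. Every measured gene had at least 1 probe set past the filter. Loxl2 was not analysed here, because its probe sets also name another gene.

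The muscles were the tibialis anterior and extensor digitorum longus (TA/EDL) of 26 individually housed littermate mice of mixed C57/BL6 and 129 background. FLOX mice were the controls for MKO mice, in which PGC-1a is deleted in skeletal muscle; PGC-1a, encoded by Ppargc1a, is a coactivator of mitochondrial genes. The mice were randomised by diet: the control diet, at 90% of each animal's own ad libitum intake, was given to 6 FLOX and 7 MKO mice, and 6 FLOX and 7 MKO mice were calorie restricted (CR). Restriction began at 80% of that intake and went on at 60% for about 11 weeks after the first, and all groups ate an AIN-93M diet. The driver of the deletion, and the age and sex of the mice, were not given in the sources used here. Each array holds 1 mouse.

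Collagen chains are modified in the endoplasmic reticulum before they leave the cell. Prolyl 4-hydroxylases stabilise the triple helix, lysyl hydroxylases prepare sites for crosslinks, and HSP47, the Serpinh1 product, binds the folded helix and escorts it toward the Golgi. Outside the cell, BMP1 removes the carboxy-terminal propeptide with help from the enhancer that Pcolce encodes, and lysyl oxidases start the crosslinks that make fibrils stiff. In muscle this work falls mainly to fibroblasts of the connective tissue around the fibres.

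Calorie restriction lowered 8 of the 9 measured genes in FLOX mice and 8 of 9 in mice labelled MKO, and none rose (limma, adjusted p under 0.05). Over all 14847 genes tested, 5.37% were lower and 4.66% higher in the FLOX comparison, and 8.49% lower and 6.64% higher in the MKO comparison. Serpinh1 fell 1.77-fold and 1.63-fold. P4ha1, P4ha2, Plod1, Lox, Loxl1, Bmp1 and Pcolce fell between 1.12-fold and 1.43-fold. Plod2 did not pass the test in either genotype. The median log2 change of the 9 genes was -0.286 in FLOX and -0.326 in MKO mice, beside medians of 0.00124 and 0.000951 over all genes tested. In 5 genes every CR FLOX mouse lay below every control FLOX mouse (3.08% of all genes did so), and in 4 genes every CR MKO mouse lay below every control MKO mouse (2.03% of all genes).

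**Figure D1:**
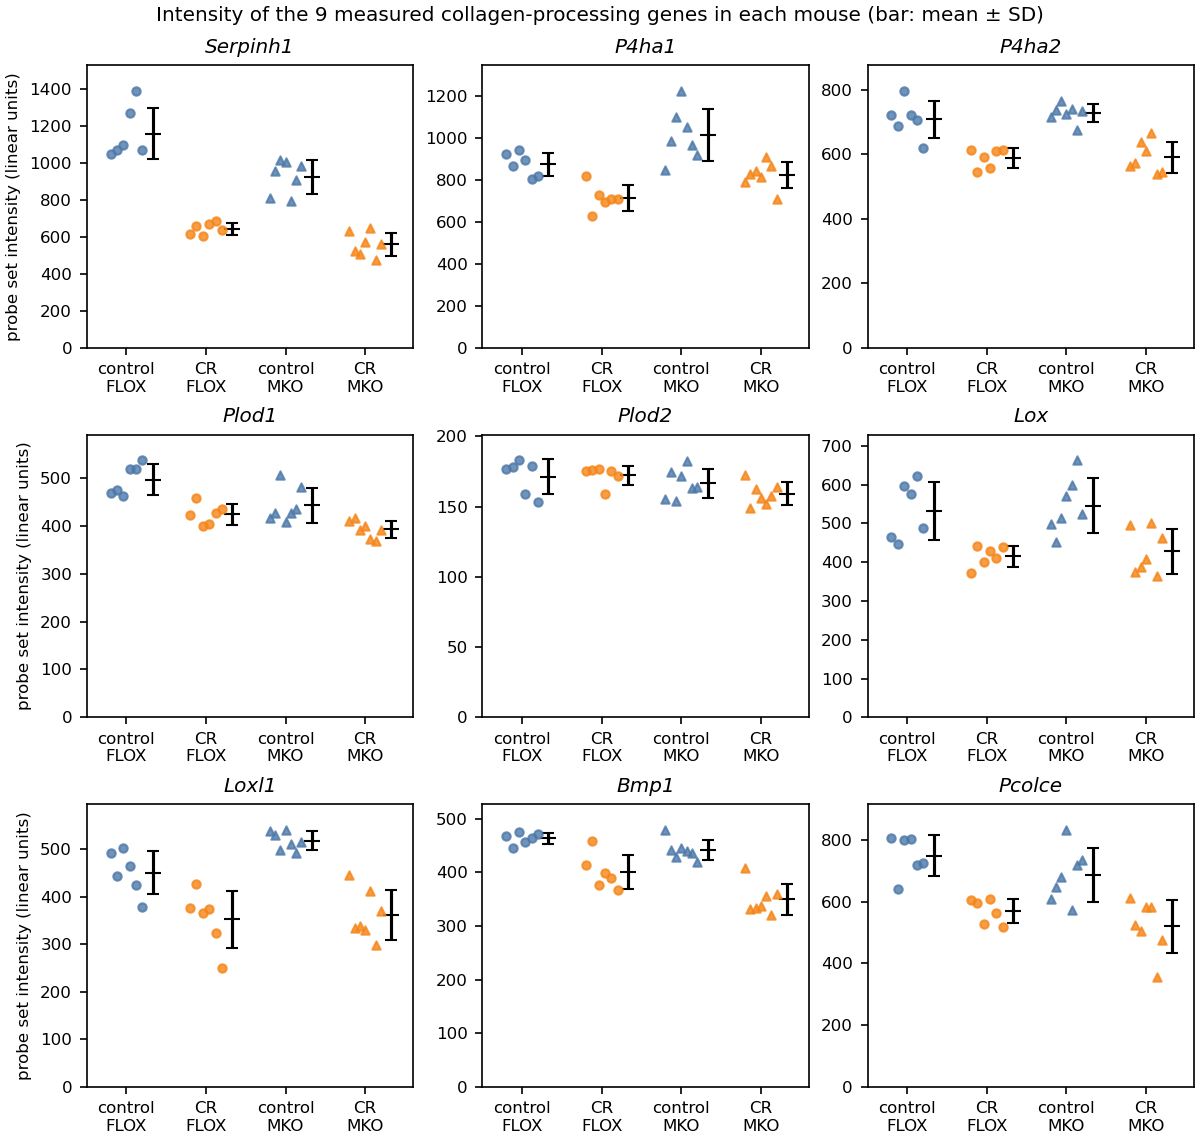
Probe-set intensity (linear units, vertical axis from 0) of each of the 9 measured genes in every mouse, by diet and genotype on the horizontal axis; bars give the group mean ± SD (n = 6 FLOX and 7 MKO mice on each diet). Serpinh1 separates the diets in both genotypes, with control mice at 791.9 or above and CR mice at 687.6 or below, whereas Plod2 lies between 148.8 and 182.8 in all groups.

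The arrays were alike: medians ran from 212 to 232 intensity units, and arrays of 1 group correlated at 0.984 to 0.996. Ppargc1a itself did not mark the deletion. All 5 of its probe sets were brighter, not dimmer, in mice labelled MKO, by 1.53-fold to 1.76-fold on the control diet and 1.34-fold to 1.58-fold on CR. Whether these probe sets lie inside the deleted exons was not analysed here, so they check nothing, and genotype directions below rest on the labels. Fast-fibre markers, which define these muscles, were bright in every array (11 genes summing to 309300 to 329600 units). In whole muscle, fewer cells of a type and less RNA per cell cannot be told apart.

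Serpinh1 encodes the collagen-specific chaperone HSP47. Its intensity in control FLOX mice ran from 1050 to 1390 with a median of 1085, and in CR FLOX mice from 603.7 to 687.6 with a median of 647.1. In mice labelled MKO it ran from 791.9 to 1016 (median 956.8) on the control diet and from 477.7 to 646.0 (median 560.5) on CR. Within each genotype the diet groups did not overlap. The log2 change was -0.82 ± 0.0769 (SE, n = 6 and 6) in FLOX and -0.71 ± 0.0712 (n = 7 and 7) in MKO mice, with limma adjusted p of 3.26e-07 and 4.54e-07. Log2 changes throughout are on the log2(intensity + 16) scale. The other Serpinh1 probe set changed by -0.68 and -0.58.

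P4ha1 and P4ha2 encode alternative catalytic subunits of collagen prolyl 4-hydroxylase. P4ha1 had a mean intensity of 875.2 ± 56.0 (SD, n = 6) in control FLOX mice (lowest 802.9, median 882.5, highest 941.4) and 716.1 ± 62.1 (n = 6) in CR FLOX mice (628.4, 709.9 and 820.7). In mice labelled MKO it was 1014 ± 125 (n = 7) on the control diet (846.8, 987.5 and 1225) and 823.5 ± 62.8 (n = 7) on CR (709.2, 830.5 and 908.2). The diet groups overlapped at their edges, and 5 of 6 CR FLOX and 5 of 7 CR MKO mice lay below all controls of their genotype. P4ha1 fell 1.22-fold in both genotypes, by 0.29 ± 0.0713 in FLOX (limma adjusted p = 0.0101) and 0.29 ± 0.0661 in MKO mice on the log2 scale (limma adjusted p = 0.0033).

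P4ha2 ran from 617.7 to 795.7 (median 712.9) in control FLOX mice and from 543.2 to 613.6 (median 600.3) in CR FLOX mice. The MKO-labelled mice ran from 675.5 to 764.6 (median 734.9) on the control diet and from 538.3 to 665.7 (median 572.5) on CR. Neither pair of diet groups overlapped; the nearest FLOX mice stood at 617.7 and 613.6. Its log2 change was -0.26 ± 0.0535 in FLOX and -0.30 ± 0.0495 in MKO mice, with limma adjusted p of 0.00205 and 0.000153.

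Serpinh1, P4ha1 and P4ha2 were each lower under CR, as were most of the measured genes. Their promoters are shown because hypoxia-response and heat-shock elements are known in this gene group. Each sequence is the RefSeq stretch of 250 bases before the gene's start in GRCm38.p6, 5′ to 3′ on the gene's strand, with every match to ACGTG or GCGTG (core hypoxia-response letters, on either strand, so CACGT and CACGC also count) in capitals. Serpinh1 lies at chr7:99353240-99353489 on the minus strand, P4ha1 at chr10:59323046-59323295 on the plus strand and P4ha2 at chr11:54100674-54100923 on the plus strand.
Serpinh1: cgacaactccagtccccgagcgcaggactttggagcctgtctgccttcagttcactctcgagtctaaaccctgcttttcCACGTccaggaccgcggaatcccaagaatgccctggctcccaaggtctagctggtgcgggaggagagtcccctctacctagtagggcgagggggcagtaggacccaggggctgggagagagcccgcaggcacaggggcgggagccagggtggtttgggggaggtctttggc
P4ha1: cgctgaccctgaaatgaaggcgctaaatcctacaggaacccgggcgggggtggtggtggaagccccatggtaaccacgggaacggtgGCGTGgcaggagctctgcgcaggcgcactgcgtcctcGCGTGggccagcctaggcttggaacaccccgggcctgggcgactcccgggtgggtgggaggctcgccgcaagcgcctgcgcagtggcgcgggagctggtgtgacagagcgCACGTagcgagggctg
P4ha2: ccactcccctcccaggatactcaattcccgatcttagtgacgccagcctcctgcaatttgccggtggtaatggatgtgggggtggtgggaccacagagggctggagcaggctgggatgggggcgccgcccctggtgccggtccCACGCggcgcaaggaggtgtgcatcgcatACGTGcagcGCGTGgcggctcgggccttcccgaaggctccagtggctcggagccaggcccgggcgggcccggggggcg
All 3 promoters hold ACGTG, its leftmost base lying 171 bases before the start in Serpinh1, 16 in P4ha1 and 78 in P4ha2. P4ha1 holds GCGTG at 163 and 126 bases, and P4ha2 at 107 and 69, while Serpinh1 lacks it. Among 32851 mouse promoters of the same length, 16.6% hold ACGTG and 28.2% hold GCGTG, so such matches are common. Serpinh1 lacks the heat-shock letters GAANNTTC in this window, as do P4ha1 and P4ha2 (6.69% of promoters hold them). Promoters of 5 of the 10 genes were searched, also those of Plod1 and Pcolce, and the others were not analysed here. Plod1 and Pcolce each had 1 GCGTG match, 20 bases before the start in Plod1 and 40 in Pcolce. Both lack ACGTG, and both genes fell under CR. A match describes letters and is no evidence of binding.

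Of 18 genes known as hypoxia targets, with the collagen genes above left out, 3 rose and 1 fell under CR in FLOX mice. In MKO mice 3 rose and none fell. Over all genes tested, 4.66% rose and 5.37% fell in FLOX mice, and 6.64% rose and 8.49% fell in MKO mice. The part of hypoxia or heat-shock signalling in the falls of the collagen genes was not tested. Egln3, an oxygen-sensing prolyl hydroxylase gene, rose 2.24-fold (log2 1.16, limma adjusted p = 0.00178) and 2.50-fold (1.32, limma adjusted p = 0.000126). Pgk1, a glycolytic enzyme gene, rose 1.11-fold in FLOX mice (limma adjusted p = 0.0187) and 1.1-fold in MKO mice (limma adjusted p = 0.0154). Of 16 heat-shock factor targets, 4 fell and none rose in FLOX mice, and 3 fell and 1 rose in MKO mice. Among them the cochaperone gene Dnaja1 changed by -0.45 and -0.29 and the HSP90 gene Hsp90aa1 by -0.39 and -0.26, all past the test. Of 14 general endoplasmic reticulum chaperone genes, 2 fell in each genotype, Dnajc3 (-0.30 and -0.25) and the disulfide isomerase gene Pdia3 (-0.25 and -0.16).

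Plod1 encodes a lysyl hydroxylase that acts on the helical part of the chain. It ran from 463.6 to 537.6 (median 497.6) in control FLOX and from 399.8 to 460.0 (median 425.2) in CR FLOX mice, without overlap. In mice labelled MKO it ran from 408.9 to 507.5 (median 427.4) on the control diet and from 368.5 to 416.5 (median 391.8) on CR, with overlap. Its log2 change was -0.22 ± 0.0502 in FLOX (limma adjusted p = 0.00524) and -0.16 ± 0.0465 in MKO mice (limma adjusted p = 0.0168).

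Plod2 encodes the lysyl hydroxylase of the telopeptides. Its means were 171.3 ± 12.3 (SD, n = 6) and 172.3 ± 6.73 (n = 6) in control and CR FLOX mice, and 166.4 ± 10.4 (n = 7) and 159.1 ± 7.98 (n = 7) in control and CR mice labelled MKO. These lie close to the filter on low values at 162 units, and its other probe set, at a mean of 157.7, did not pass. All groups overlapped. The log2 change was 0.01 in FLOX, with a 95% interval from -0.0827 to 0.103, and -0.06 in MKO mice (limma adjusted p = 0.933 and 0.408). A probe set this dim may not report a change.

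Lox and Loxl1 encode secreted lysyl oxidases. Lox ran from 446.0 to 621.2 (median 531.7) in control FLOX and from 371.1 to 442.9 (median 419.3) in CR FLOX mice, which did not overlap. Those labelled MKO ran from 452.9 to 662.6 (median 523.4) on the control diet and from 363.9 to 501.8 (median 409.5) on CR, and 4 of 7 CR mice lay below all controls. Lox changed by -0.34 ± 0.0921 in FLOX (limma adjusted p = 0.0189) and -0.34 ± 0.0852 in MKO mice (limma adjusted p = 0.00671). The FLOX call was lost without control FLOX mouse 3 (0.0514) or 5 (0.0524).

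Loxl1, whose product acts on elastic fibres as well, ran from 378.8 to 502.8 (median 453.0) in control FLOX and from 250.3 to 425.5 (median 369.0) in CR FLOX mice. The MKO-labelled range was 490.9 to 540.0 (median 515.5) on the control diet and 299.0 to 446.0 (median 337.9) on CR. The FLOX groups overlapped and the MKO groups did not. Loxl1 fell 1.28-fold in FLOX (-0.35 ± 0.0941, limma adjusted p = 0.0159) and 1.43-fold in MKO mice (-0.51 ± 0.0871, limma adjusted p = 0.000208).

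Bmp1 encodes the procollagen C-proteinase. It ran from 445.6 to 475.1 (median 466.3) in control FLOX and from 367.5 to 458.4 (median 395.0) in CR FLOX mice. Animals labelled MKO ran from 420.0 to 479.4 (median 440.0) on the control diet and from 321.2 to 407.8 (median 338.2) on CR. Only the MKO diet groups did not overlap. Its log2 change was -0.21 ± 0.0494 in FLOX (limma adjusted p = 0.00734) and -0.33 ± 0.0457 in MKO mice (limma adjusted p = 2.19e-05).

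Pcolce, the gene of the enhancer of that proteinase, ran from 641.8 to 805.8 (median 761.0) in control FLOX and from 519.0 to 607.4 (median 578.3) in CR FLOX mice, which did not overlap. In mice labelled MKO it ran from 571.4 to 831.8 (median 678.8) on the control diet and from 356.0 to 612.2 (median 524.1) on CR. The lowest of all 26 was CR MKO mouse 6. That mouse was also lowest for Serpinh1, P4ha2, Plod1, Lox and Bmp1, and for the collagen genes Col1a1, Col1a2 and Col3a1. It was not lowest for P4ha1, Plod2 or Loxl1. Its array was 1 of 3 richest in slow-fibre myosin. Pcolce fell 1.30-fold and 1.32-fold (-0.38 ± 0.0975 and -0.40 ± 0.0903, limma adjusted p = 0.0114 and 0.0033).

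**Figure D2:**
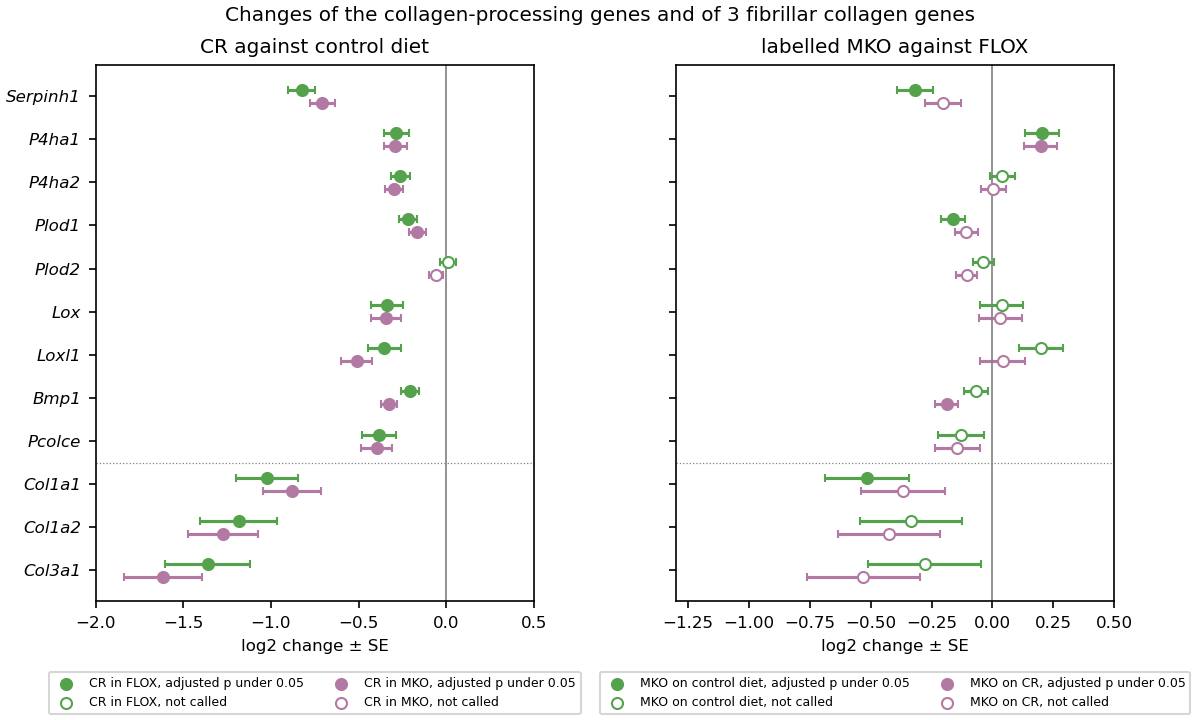
Log2 change ± SE (horizontal axes) of the 9 genes and of 3 fibrillar collagen genes, for CR against control diet (left) and mice labelled MKO against FLOX (right); filled points have a limma adjusted p under 0.05. Under CR, 8 of the 9 genes lie between -0.16 (Plod1) and -0.82 (Serpinh1), Plod2 lies at 0.01 and -0.06, and the 3 collagen genes lie between -0.88 and -1.61; the genotype changes lie on both sides of 0.

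Genotype moved fewer of these genes. On the control diet, 2 of 9 were lower and 1 higher in mice labelled MKO than in FLOX mice, where 10.2% and 9.06% of all genes were. Serpinh1 was lower by 0.32 ± 0.0741 on the log2 scale (1.25-fold, limma adjusted p = 0.00296), and all 7 mice lay below every FLOX mouse (3.81% of all genes did so). Plod1 was lower by 0.16 ± 0.0484 (limma adjusted p = 0.0186), a call lost without control FLOX mouse 6 (0.0606) or when only those 2 groups were fitted (0.062). P4ha1 went the other way and was 1.15-fold higher (0.20 ± 0.0688, limma adjusted p = 0.0375). The fibrillar collagen gene Col1a1 was also lower in mice labelled MKO on the control diet (-0.51, limma adjusted p = 0.0356). Col1a2 (-0.34) and Col3a1 (-0.28) did not pass there. On CR, Col1a1 (-0.37), Col1a2 (-0.42) and Col3a1 (-0.53) did not pass.

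On CR, 1 of 9 was lower and 1 higher in mice labelled MKO, where 9.05% and 8.23% of all genes were. Bmp1 was 1.14-fold lower (-0.19 ± 0.0476, limma adjusted p = 0.00597), and 6 of 7 mice lay below every CR FLOX mouse. P4ha1 was again 1.15-fold higher (0.20 ± 0.0688, limma adjusted p = 0.046). Serpinh1 had a log2 difference of -0.20 ± 0.0741 that did not pass (limma adjusted p = 0.0597); it passed without control FLOX mouse 5, control MKO mouse 5, or CR MKO mouse 1 or 5, at 0.029 to 0.049. The P4ha1 calls were the least firm: the control-diet call was lost without any 1 of 6 mice (control FLOX 2, 5 and 6, control MKO 3, 4 and 5) and the CR call without any 1 of 15 (control FLOX 1, 2 and 4, control MKO 2 and 6, CR FLOX 2 to 6, CR MKO 2 to 6), with adjusted p reaching 0.0973 and 0.136. Both were also lost when the 3 arrays with the slow-fibre myosin gene Myh7 above log2 10 (control FLOX 1, control MKO 4 and CR MKO 6) were left out (0.0925 and 0.0567), an alternative chosen after seeing the data. The second P4ha1 probe set differed by 0.17 and 0.19 in the same direction.

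The diet changes were not shown to differ between genotypes. The difference of the diet effects ran from -0.16 (Loxl1) to 0.12 (Serpinh1), and no gene passed (limma, smallest unadjusted p = 0.0859, for Bmp1). No gene of the 14847 passed either (0%), and 720 had an unadjusted p under 0.05, none of them among these 9. The 95% intervals of the 9 differences lay between -0.421 (Loxl1) and 0.331 (Serpinh1), so smaller differences within each gene's interval are not excluded.

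The main fibrillar collagen genes of muscle, chosen by name as substrates, had larger falls than most of the 9 genes. Col1a1 and Col1a2, the chains of type I collagen, and Col3a1, of type III, changed by -1.02, -1.19 and -1.36 in FLOX and by -0.88, -1.27 and -1.61 in MKO mice under CR, all past the test. Against the mean log2 change of these 3 genes (-1.19 in FLOX and -1.26 in MKO), 17 of 18 differences passed, 9 genes in each of 2 genotypes (exact two-sided permutation test over mice, Benjamini-Hochberg over the 18), and in all of them the processing gene fell less or did not fall. Serpinh1 was nearest to the collagens: its change was smaller by 0.37 ± 0.18 in FLOX, which did not pass (exact permutation, adjusted p = 0.0693), and by 0.55 ± 0.146 in MKO mice (exact permutation, adjusted p = 0.00484). The other differences ran from 0.74 for Loxl1 to 1.20 for Plod2. The smallest p these tests can give is 0.00216 for 6 against 6 mice and 0.000583 for 7 against 7. A change is compressed in probe sets near the floor, which bears most on Plod2. It can also bear on Lox, Plod1, Bmp1 and Loxl1, with means of 450.4 to 532.1 units in control FLOX mice. The 3 collagen probe sets ran from 766.9 to 5150 units in those mice. The part of brightness in these differences was not tested. These 3 genes do not stand for all fibrillar collagens: Col5a2 (-0.66 and -0.69) and Col5a3 (-0.45 and -0.41) had smaller changes than Serpinh1, and Col5a1 (-0.09 and -0.04) and Col11a2 (0.06 and -0.05) did not pass the test.

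Fibroblast markers fell as well, so the same test was run against their mean. Among all genes tested, 5.37% fell in FLOX and 8.49% in MKO mice. Of 16 marker genes, 7 fell in FLOX and 9 in MKO mice and none rose (median -0.263 and -0.271), and their summed intensity ran from 24350 to 29640 in control FLOX, 18590 to 26010 in CR FLOX, 27750 to 31870 in control MKO and 18840 to 27420 in CR MKO mice. Smoc2, a matrix-associated protein gene, changed by -0.52 in both genotypes, and the surface antigen gene Thy1 by -0.37 in both. Against the marker mean (-0.25 in both genotypes), 5 of 18 differences passed. Serpinh1 fell further than the markers, by 0.57 ± 0.0954 in FLOX and 0.46 ± 0.0683 in MKO mice (exact permutation, adjusted p = 0.013 and 0.00524), in 6 of 6 and 7 of 7 mice. Loxl1 fell further in MKO mice, with a difference of -0.26 ± 0.0413 (exact permutation, adjusted p = 0.00524), and had a difference of -0.10 in FLOX mice (exact permutation, adjusted p = 0.316). Plod2 lay above the markers by 0.26 and 0.19, on a probe set near the floor that may not report a change. P4ha1, P4ha2, Plod1, Lox, Bmp1 and Pcolce did not pass in either genotype, and their differences ran from -0.145 (Pcolce) to 0.0881 (Plod1). With each gene taken as the mean of its probe sets, 3 of these passed: Bmp1 in FLOX (0.144), Pcolce in FLOX (-0.15) and Plod1 in MKO mice (0.156), with exact permutation adjusted p of 0.0325, 0.0325 and 0.0375. The part of cell number in the diet changes was not tested.

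**Figure D3:**
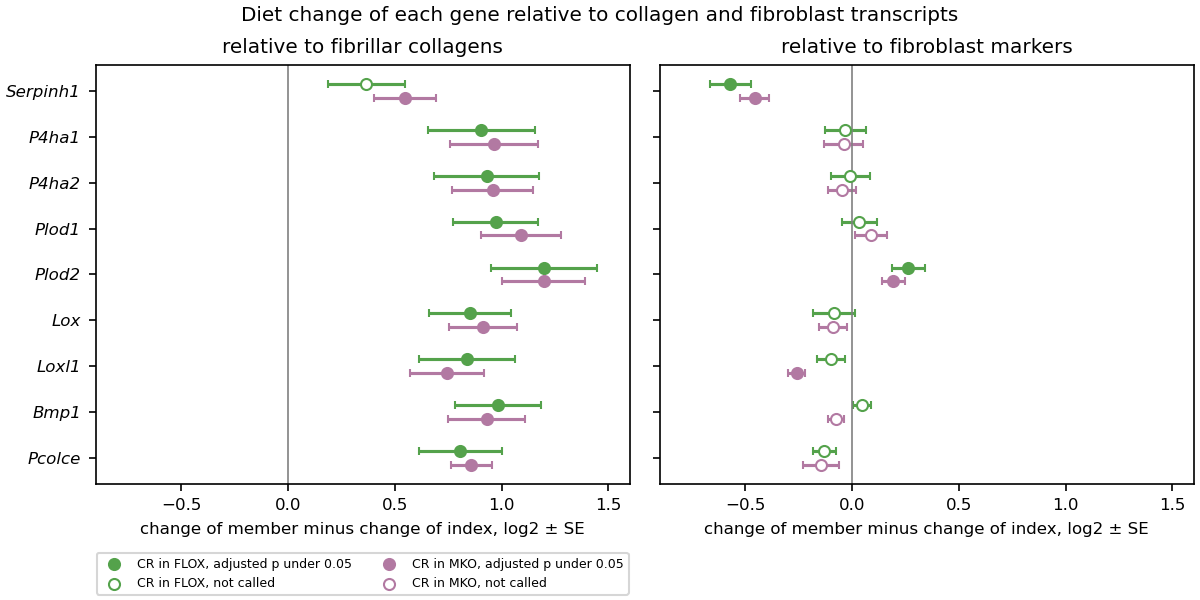
Diet change of each gene minus that of 3 fibrillar collagen genes (left) or of 16 fibroblast marker genes (right), log2 ± SE on the horizontal axes; filled points have an exact permutation adjusted p under 0.05 over 18 tests. All points lie right of 0 on the left; on the right Serpinh1 stands at -0.57 and -0.46, and most other genes lie near 0.

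Other genes of the collagen route moved less uniformly. Among all genes tested, 5.37% fell and 4.66% rose under CR in FLOX mice, and 8.49% and 6.64% in MKO mice. Of 18 further genes that act with these enzymes in the endoplasmic reticulum, 3 fell and none rose in FLOX mice, and 3 fell and 1 rose in MKO mice (median -0.0757 and -0.0328). Crtap, part of the prolyl 3-hydroxylation complex, changed by -0.18 and -0.23 (limma adjusted p = 0.0236 and 0.00141). Fkbp9, a peptidyl-prolyl isomerase gene, changed by -0.21 and -0.30 (limma adjusted p = 0.0218 and 0.000353) and was higher in mice labelled MKO by 0.44 on the control diet (limma adjusted p = 2.91e-06). That list had 5 higher and 3 lower in mice labelled MKO on the control diet and 5 higher and 2 lower on CR. The shares over all genes tested were 9.06% higher and 10.2% lower on the control diet, and 8.23% and 9.05% on CR. Of 12 genes acting outside the cell, 3 fell in FLOX and 5 in MKO mice, among them the fibril-binding proteoglycan gene Fmod (-0.88 and -0.86) and Sparc (-0.84 and -0.80), a collagen-binding matrix protein gene. By genotype 2 of those 12 were higher and 1 lower on the control diet, and 1 and 1 on CR.

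Of 7 fibrillar collagen genes, 5 fell in each genotype, all but Col5a1 and Col11a2. Of 8 basement membrane collagen genes, 3 fell in each, with Col4a1 at -0.80 and -0.81 and Col4a2 at -0.66 and -0.60. Of 16 genes of TGF-beta signalling, a pathway known to induce collagen enzymes, 2 fell in FLOX and 5 in MKO mice and none rose. The share of all genes tested that fell was 5.37% in FLOX and 8.49% in MKO mice. The latent TGF-beta binding protein gene Ltbp4 changed by -0.48 and -0.30, and the ligand gene Tgfb3 by -0.26 and -0.29. Tgfb3 was also higher in mice labelled MKO on both diets, by 0.24 and 0.21 (limma adjusted p = 0.000814 and 0.0024).

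Markers of other cells moved beside these results. The shares over all genes tested were 5.37% lower and 4.66% higher under CR in FLOX mice, and 8.49% and 6.64% in MKO mice. Of 10 tendon markers, 5 fell in FLOX and 7 in MKO mice (median -0.443 and -0.464), with the cartilage and tendon matrix gene Chad at -0.79 and -0.67 and the tendon membrane protein gene Tnmd at -0.74 and -0.71. Their summed intensity ran from 8058 to 12370 in control FLOX and 6372 to 7719 in CR FLOX mice, and from 8016 to 11070 in control MKO and 3855 to 7914 in CR MKO mice, without overlap by diet. Of 12 endothelial markers 1 fell in FLOX and 4 in MKO mice (Emcn at -0.21 in both), and of 13 macrophage markers 2 fell in each, with the antigen-presentation gene Cd74 at -1.49 and -1.62 and Adgre1 at -0.15 in FLOX mice. None of 5 adipocyte, 9 smooth muscle and pericyte or 4 Schwann markers passed in a diet comparison; those of smallest p in FLOX mice were Retn (0.18, limma adjusted p = 0.464), Abcc9 (0.13, 0.0796) and S100b (-0.04, 0.81). Of 11 fast-fibre markers 1 rose in FLOX (Mylpf at 0.11) and 2 in MKO mice, and of 8 slow-fibre markers 1 rose in each genotype, Myoz2 at 0.64 and 0.65. Slow-fibre markers summed to 6035 to 15500 in control FLOX, 9508 to 16290 in CR FLOX, 12550 to 18490 in control MKO and 16060 to 33070 in CR MKO mice. The part of any of these cell types in the changes of the 9 genes was not tested.

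Markers also differed by genotype, beside the Serpinh1, Plod1, P4ha1 and Bmp1 differences. Among all genes tested, 10.2% were lower and 9.06% higher on the control diet, and 9.05% and 8.23% on CR. Of 12 endothelial markers, 4 were lower in mice labelled MKO on each diet, among them the angiopoietin-receptor family gene Tie1 (-0.22 and -0.17) and Emcn (-0.14 on both diets). Of 8 slow-fibre markers, 2 were higher on each diet: Myoz2 on both (0.64 and 0.65), Myl3 on the control diet (1.24) and Myl2 on CR (1.26). Among 10 tendon markers, the transcription factor gene Scx was higher on both diets (0.47 and 0.62) and Tppp3 lower on CR (-0.24). Of 9 smooth muscle and pericyte markers, Tagln was lower on both diets (-0.20 and -0.34), Acta2 lower on CR (-0.29) and Abcc9 higher on both (0.30 and 0.17). Of 16 fibroblast markers, Pdgfrl was lower on the control diet (-0.24) and Gsn higher on CR (0.27). The adipocyte list had Lipe lower on both diets (-0.21 and -0.25) and the macrophage list Csf1r lower on the control diet (-0.25), while no fast-fibre or Schwann marker passed. Genes of these lists that the naming rule did not cover were named after their values were seen, and the part of these cells in the genotype differences was not tested.

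Probe sets of 1 gene did not always move together. The split at 250 units used here was chosen after their values were seen. Of the 18 probe sets, 12 had a mean of 331 to 862 units, and 11 of these fell in each genotype, by limma with adjustment over probe sets. The other 6, at 167 to 212 units, gave 0 calls in either genotype, with log2 changes from -0.0705 to 0.0406. They belong to Bmp1, Lox, Loxl1, Plod1 and Plod2. The brighter probe set that did not pass was one of Lox, at -0.15 and -0.10 (adjusted p = 0.113 and 0.227 in limma). P4ha1 and Pcolce fell on both of their probe sets, as did Serpinh1. With each gene taken as the mean of its probe sets, which brings in the dim ones, the CR calls of Lox were lost in both genotypes, as were those of Bmp1 in FLOX and Plod1 in MKO mice, the lower Bmp1 of MKO mice on CR, and the difference of Loxl1 from the fibroblast markers.

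**Figure D4:**
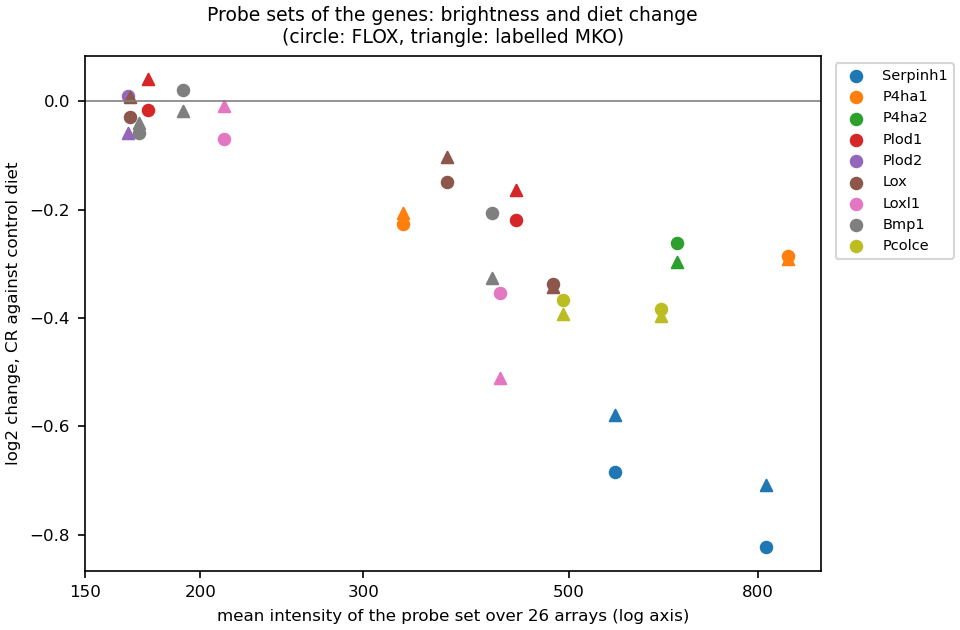
Log2 change under CR (vertical axis) of the 18 probe sets against their mean intensity over 26 arrays (horizontal log axis), coloured by gene; circles are FLOX and triangles mice labelled MKO. The 6 probe sets at 212 units or below lie near 0, and the 12 at 331 or above lie between -0.10 and -0.82.

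The genes also varied from mouse to mouse within groups. The correlations that follow describe deviations from group means over 26 arrays, which share animals and arrays, and carry no test. Serpinh1 had r = 0.666 with Col1a2, 0.605 with Pcolce, 0.521 with Lox and 0.0236 with P4ha1. P4ha1 had r = 0.511 with P4ha2 and -0.219 with Col1a1. Loxl1 had r = 0.739 with Bmp1 and 0.513 with Pcolce. Pcolce had r = 0.772 with Col3a1 and 0.405 with Bmp1, and Bmp1 had 0.507 with Col3a1. Plod1 and Plod2 had r = -0.351. These values shifted without the 2 arrays farthest from the median of a gene of the pair. Serpinh1 then had 0.584, 0.651, 0.403 and 0.174, and P4ha1 0.624 and -0.389, in the order above. Loxl1 had 0.643 and 0.458, and Pcolce had 0.72 with Col3a1. Bmp1 had 0.309 with Pcolce and 0.373 with Col3a1, and Plod1 had -0.243 with Plod2.

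Of all genes tested, those most like Serpinh1 were the basement membrane collagen genes Col4a1 (r = 0.765) and Col4a2 (0.749), the fibrillar collagen gene Col5a2 (0.76) and the hexokinase gene Hk1 (0.733). For Lox they were Chst12 (0.702), the matrix glycoprotein gene Tnc (0.695), Tnmd (0.693) and Abca9 (0.67). For Pcolce they were Nid1 (0.889), a basement membrane linker gene, the intermediate filament gene Vim (0.814), Crispld2 (0.803) and Angptl1 (0.795). For P4ha1 they were Tmx1 (0.831) and Txndc15 (0.801), genes of thioredoxin-domain proteins, with Fam174a (0.829) and Arhgap5 (0.805). Without the 2 arrays farthest from the median of the named gene, these 16 correlations ran from 0.594 to 0.841. Leaving out CR MKO mouse 6 alone gave 0.645 (Lox with Abca9) to 0.845 (P4ha1 with Fam174a). Those of Pcolce were then 0.839, 0.739, 0.671 and 0.703, in the order above.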

How the data were processed

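Total RNA from TA/EDL muscle was labelled with biotin and hybridised to Affymetrix mouse arrays, per the labels' protocols. The authors deposited 1 processed intensity per probe set and array on a linear scale; the summarisation, normalization and scan batches are not given in the sources used here, so a batch could not be tested. The genes and gene lists were chosen with earlier results of these data known.

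Of 45101 probe sets, 34945 name 1 gene. Probe sets whose mean log2(intensity + 16) reached the 30th percentile (log2 7.47, or 162 units) were kept, and the brightest stood for each gene, giving 14847 genes. Group means over 26 arrays were fitted with limma 3.58.1 in R 4.3.3, with Benjamini-Hochberg adjustment over all genes and a threshold of 0.05; the fit was tested on simulated data. Intensity carries no counting error but does carry measurement error. The number of mice limits precision, and with 1 mouse on each array measurement error and the spread between mice were not separated. Mice are separate animals. Replicate numbers were not used to pair the samples in the main fit. Named beyond the 9 genes were Ppargc1a, the substrates Col1a1, Col1a2 and Col3a1, the 2 genes of each list with the smallest p among those called for CR in FLOX (the 1 of smallest p where none was), and the 4 genes most correlated with each of Serpinh1, P4ha1, Lox and Pcolce. Alternatives covered pseudocount, filter, normalization, probe-set choice, array weights, samples fitted and each mouse left out.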

Additional observations from a re-analysis of the deposited data

Results flagged for a closer look

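Of 36 sets of values, 9 genes in each of 4 groups, 1 held a mouse far from the others. Plod2 in CR FLOX mouse 4 was 159.1 intensity units, while the other 5 mice lay between 171.7 and 176.8. The gap was 0.721 of the group's range, against a Dixon critical value of 0.625 for 6 samples. Chance flags about 1 in 20 such groups.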

How the results depend on the processing

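Under 12 alternatives besides leaving out mice, the count of genes lower under CR was 8 in each genotype, except 6 with the mean of each gene's probe sets; leaving out each mouse gave 7 to 8 in FLOX and 8 in MKO mice. With the replicate number as a block, 8 genes were lower in each genotype. The 37 same-number pairs had r from -0.361 to 0.34, with 16 above 0.1. They were not set against other pairs, so they cannot show whether the numbers pair the mice. Genotype counts were less stable. On the control diet the 2 lower genes became 1 when fitting only the groups compared (Plod1 was lost, limma adjusted p = 0.062). The count of higher genes stayed at 1 in that fit, with P4ha1 lost (0.0704) and Loxl1 gained (0.0264), and became 0 without the Myh7-rich arrays; leaving out a mouse gave 1 to 2 and 0 to 1. On CR the 1 lower gene became 0 with the mean of probe sets, 3 with array weights and 2 with only the groups compared, and the 1 higher became 0 with no filter, median centring, array weights or without the Myh7-rich arrays; leaving out a mouse gave 1 to 2 and 0 to 1. The causes were not tested.

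Averaging a gene's probe sets brings in the dim ones. Lox then no longer passed under CR (-0.171, limma adjusted p = 0.0632, and -0.146, 0.0722), nor did Bmp1 in FLOX (-0.0811, 0.25) or Plod1 in MKO mice (-0.0615, 0.163). Against the fibroblast markers the sign turned for Lox (0.0538 in FLOX, 0.0719 in MKO), Loxl1 in FLOX (0.0134) and Bmp1 in MKO mice (0.0897), and the Loxl1 call in MKO mice was lost (-0.0425, exact permutation adjusted p = 0.341), while calls were gained for Bmp1 (0.144, 0.0325) and Pcolce (-0.15, 0.0325) in FLOX and Plod1 (0.156, 0.0375) in MKO mice. The Plod2 difference from the markers in FLOX mice was lost with quantile normalization (exact permutation adjusted p = 0.0623). Probe sets near 162 units can hide a change.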
